A study of Mus musculus with 8 samples.

Results

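The nuclei described here are those fibroblasts of the mouse optic nerve (ON) in which neither *Adamtsl3* nor *Ranbp3l* was detected. They were chosen by measured counts. A nucleus entered when it had at least 1000 unique molecular identifiers (UMIs, each standing for 1 captured transcript), less than 5% mitochondrial UMIs, at least 4 of 8 fibroblast genes (*Dcn*, *Col1a1*, *Col1a2*, *Bnc2*, *Trpm3*, *Sdk1*, *Ranbp3l* and *Cdh11*), fewer than 3 UMIs of the oligodendrocyte (OL) gene *St18* and fewer than 3 UMIs of the astrocyte genes *Aqp4* and *Slc1a2* together. These criteria gave 2949 fibroblasts among 40845 nuclei. Of them, 330 had 0 UMIs of both *Adamtsl3* and *Ranbp3l* and are called double-negative nuclei below. The other 2619 comprised 849 *Adamtsl3*-positive fibroblasts and 1770 fibroblasts with *Ranbp3l* but no *Adamtsl3*. *Adamtsl3* lies on chromosome 7, 81984645 to 82263658, and *Ranbp3l* on chromosome 15, 8997242 to 9068799 (GRCm39, both on the plus strand).

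Single-nucleus RNA was counted in 8 libraries of P120 female mice, each from 6 pooled ONs. Replicates 1 to 4 came from *Piezo2f/f* controls, which carry the floxed allele without cre, and replicates 10 to 13 are labelled *Olig2-cre;Piezo2f/f* cKO. The floxed allele was thus shared by both groups, and the cre is driven from the *Olig2* locus, which is active in the OL lineage. In nuclei with at least 3 UMIs of *St18*, *Piezo2* was at 417 ± 53.5 CPM (UMIs of the gene per 1000000 UMIs, SD, n = 4) in the controls and at 512 ± 21.1 CPM in the other group, an exact permutation p of 0.0286 (the smallest possible) in the direction opposite to a deletion, so the second group is called the libraries labelled cKO. *Olig2* was at 31.9 ± 6.64 and 49.4 ± 5.08 CPM in the same nuclei, with the same exact permutation p of 0.0286. Counts over the whole gene do not show whether the floxed exons were lost. The libraries held 39628926 to 56541132 UMIs over all barcodes. Pituitary genes stood apart in 2 control libraries: *Prl* was at 1786 CPM in the double-negative nuclei of replicate 3 and at 299 CPM in those of replicate 2, and at 0 to 38.6 CPM in the other 6 libraries. The double-negative nuclei of different libraries shared 0 cell barcodes, and 1 barcode was shared among all fibroblasts.

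The ON is wrapped in the same 3 meningeal layers as the brain. Pial fibroblasts lie on the nerve and line its vessels, arachnoid fibroblasts form a barrier with many solute transporters, and the dura forms the outer sheath. Fibroblasts make fibrillar collagens such as type I and type III, the proteoglycans decorin (*Dcn*) and lumican (*Lum*) and basement membrane proteins. *Adamtsl3* encodes a secreted matrix protein and *Ranbp3l* a Ran-binding protein; both genes serve here only as labels of fibroblast types.

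Double-negative nuclei made up a small and variable share of the fibroblasts. The share was 12.9% in control replicate 1, 17.9% in replicate 2, 9.71% in replicate 3 and 13.7% in replicate 4. In the libraries labelled cKO it was 5.73% in replicate 10, 9.73% in replicate 11, 10.2% in replicate 12 and 12.1% in replicate 13. The lowest value came from only 15 nuclei, with an exact (Clopper-Pearson) 95% binomial interval of 3.24% to 9.27% that covers counting error only. The means were 13.6% ± 3.38 in controls and 9.43% ± 2.67 in the libraries labelled cKO (SD, n = 4), and the ranges overlapped. The difference did not pass the exact permutation test over libraries (two-sided p = 0.114; the smallest p possible is 0.0286). Relative to all nuclei, the means were 0.940% in the controls and 0.70% in the libraries labelled cKO, with an exact permutation p of 0.286. When at least 5 of the fibroblast genes were required, 77 of 1816 fibroblasts (4.24%) were double-negative, with means of 4.66% in the controls and 4.02% in the libraries labelled cKO.

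A count of 0 is more likely in a shallow nucleus, and the double-negative nuclei were shallower. Their median UMI count was below that of the other fibroblasts in 8 of 8 libraries, with a mean difference of -826 UMIs (-1725.5 to -124 by library). Choosing nuclei by counts of 0 favours shallow ones by itself, so this difference is a description without a test. They had 2425 to 3500.5 UMIs by library, against 3290 to 4852 in the other fibroblasts. When every fibroblast was thinned to 1000 UMIs, 468 of the 2619 other fibroblasts (17.9%) also read 0 for both genes, and the double-negative share rose to 27.1% of all fibroblasts. A count of 0 therefore does not show that either gene was absent from a nucleus at this depth.

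**Figure D1:**
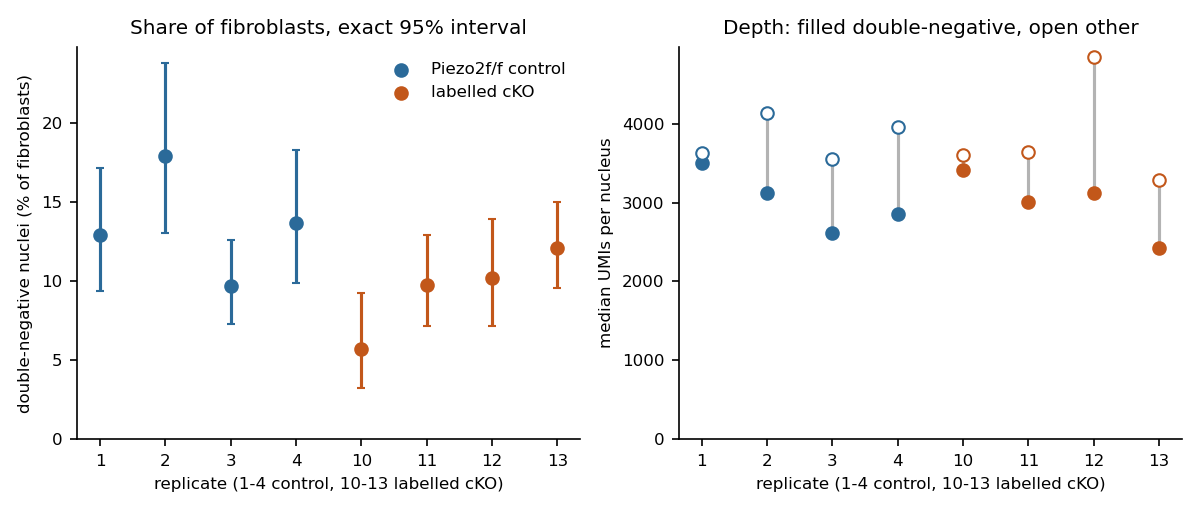
Left, share of fibroblasts that are double-negative (%) in each library with its exact 95% binomial interval; right, median UMIs per nucleus of double-negative nuclei (filled) and other fibroblasts (open). Shares range from 5.73% to 17.9% with overlapping genotypes, and the filled point lies below the open one in all 8 libraries.

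The genes of the selection are given as a description without a test. *Dcn* ranged from 570 to 1670 CPM in the double-negative nuclei of the 8 libraries, with a median of 1294, and from 485 to 813 in the other fibroblasts, with a median of 606. It was higher in 7 of 8 libraries, and in replicate 10, with 15 nuclei, it was at 570 against 583 CPM. The type I collagen genes had the same order, with *Col1a1* at 487 against 303 CPM and *Col1a2* at 519 against 393 CPM (means of 8 libraries). *Trpm3*, which encodes a cation channel, went the other way. It was at 2095 to 6184 CPM in the double-negative nuclei and at 12361 to 18299 CPM in the other fibroblasts, without overlap. *Bnc2*, a transcription factor gene, was at 618 against 1483 CPM and *Sdk1*, an adhesion gene, at 419 against 836 CPM, while *Cdh11*, a fibroblast cadherin, was at 198 against 159 CPM.

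Of the 330 nuclei, 253 had exactly 4 of the 8 genes, 54 had 5, 22 had 6 and 1 had 7. Just outside the limit on the pair of genes were 293 fibroblasts with 1 UMI of *Adamtsl3* or *Ranbp3l*, which had 1093 CPM of *Dcn* and 5948 CPM of *Trpm3*. Just inside, the double-negative nuclei had 1311 and 3168 CPM when pooled over libraries. The 2113 fibroblasts with 3 or more UMIs of the pair had 543 and 16813 CPM. Just outside the limit on fibroblast genes were 744 nuclei with 3 of the 8 genes and neither *Adamtsl3* nor *Ranbp3l*, with 749 CPM of *Dcn* and 315 CPM of *Col3a1*. The double-negative nuclei with exactly 4 genes had 1229 and 515 CPM of these, and those with 5 or more had 1525 and 1083 CPM.

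Detection was then set beside OLs and astrocytes, since free RNA gives UMIs in nuclei that do not express a gene. These had at least 3 UMIs of *St18*, or of *Aqp4* and *Slc1a2* together, and fewer than 4 of the 8 fibroblast genes. *Dcn* belongs to the selection, so its detection was set in part by the rule and is given as a description. It was detected in 83.3% of the double-negative nuclei, in 65.8% of the other fibroblasts, in 17.8% of OLs and in 17.8% of astrocytes (median UMIs 2907.5, 3715, 2903 and 3281). After thinning each nucleus to 1000 UMIs these shares were 55.2%, 35.8%, 6.89% and 6.63%. *Col3a1*, a type III collagen gene outside the selection, was detected in 49.1%, 55.4%, 7.22% and 6.65%, and after thinning in 37.3%, 26.0%, 2.65% and 2.14%. In the double-negative nuclei as a whole, *Col3a1* detection was thus above its level in OLs and astrocytes. The groups were chosen for and against fibroblast genes, so this is a description and no check of the label. Fibroblast markers were unevenly spread over the 330 nuclei, as a clustering showed.

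Leiden clustering split the double-negative nuclei into 11 clusters, numbered by size and given here as a description. Clusters 1 to 5 held 220 nuclei (66.7%) and carried 7 to 10 of 10 fibroblast markers outside the selection (*Col3a1*, *Col5a2*, *Col6a3*, *Lum*, *Fbn1*, *Pdgfra*, *Pdgfrb*, *Lama2*, *Phldb2* and *Slc7a11*), each counted when detected in at least 20% of a cluster's nuclei. Clusters 6, 7, 8 and 11, with 85 nuclei (25.8%), carried only 2 or 3 of them. For those 85 nuclei the data go against the fibroblast label, and they are called by their leading genes. Clusters 9 and 10 carried 7 and 9 of the markers together with genes of other cell types.

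Cluster 1 (57 nuclei from 8 libraries) was led by *Lama1*, a basement membrane laminin gene on chromosome 17, 68004223 to 68129642, with 1288 CPM against 89.4 CPM in the other double-negative nuclei. Its other leading genes included *Cemip* (693 against 51.8 CPM), which encodes a hyaluronan-degrading protein, *Eln* (1476 against 242 CPM), the gene of elastin, and *Pi16* (601 against 99.5 CPM), a gene of adventitial fibroblasts. It had 2807 CPM of *Dcn*, 383 CPM of *Lum* and 735 CPM of *Pdgfra*, the gene of a PDGF receptor. *Lama1* was at 35.8 and 171 CPM in the pooled *Adamtsl3*-positive and *Ranbp3l*-positive fibroblasts, which were not clustered, so these values do not show whether some of them had a level as high.

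Cluster 3 (41 nuclei) was led by *Anxa1* (501 against 29.1 CPM), a calcium-dependent membrane-binding protein gene, *Cav1* (608 against 54.0 CPM), the gene of caveolin, and *Cdh13* (775 against 75.8 CPM), a cadherin gene. It also had 484 CPM of *Dpp4*, a gene of the arachnoid barrier layer, 4128 CPM of the fibronectin gene *Fn1* and 1808 CPM of *Col3a1*. *Dpp4* was at 221 CPM in *Adamtsl3*-positive and 335 CPM in *Ranbp3l*-positive fibroblasts. The median of cluster 3, 4008 UMIs, was above that of the double-negative nuclei as a whole. The part of depth in the lack of *Adamtsl3* and *Ranbp3l* UMIs in this cluster was not tested.

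Clusters 4 and 5, with 33 nuclei each, shared some leading genes with the other fibroblast types but not all levels. Cluster 4 was led by *Slc4a10*, a bicarbonate transporter gene, at 3132 CPM against 3281 CPM in *Adamtsl3*-positive and 53.5 CPM in *Ranbp3l*-positive fibroblasts. *Slc47a1*, an organic cation exporter gene, was at 1311 CPM there and 1219 CPM in *Adamtsl3*-positive fibroblasts, whereas *Ptgds*, the prostaglandin D synthase gene of meningeal fibroblasts, was at 4580 against 17040 CPM and *Dcn* at 773 against 331 CPM. Cluster 5 was led by *Slc6a20a*, a proline transporter gene, at 902 CPM, against 1269 CPM in *Ranbp3l*-positive and 415 CPM in *Adamtsl3*-positive fibroblasts. Its *Trpm3* level was 14517 CPM, against 21767 CPM in *Ranbp3l*-positive fibroblasts, and *Slc7a11* was at 2030 against 1114 CPM.

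Cluster 2 (56 nuclei) had a median of only 1576.5 UMIs. It was led by haemoglobin genes, with *Hbb-bs* at 7619 against 1018 CPM, and by *Ptgds* at 24089 against 4438 CPM. In the pooled *Adamtsl3*-positive and *Ranbp3l*-positive fibroblasts *Ptgds* was also high, at 17040 and 20077 CPM. Depth and these genes moved together in this cluster, and their part in its separation was not tested.

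Clusters 6 to 10 were led by genes of other cells, whereas the leading genes of cluster 11 named no cell type. Cluster 6 (30 nuclei) was led by *Adgrv1* (2363 against 51.7 CPM), an adhesion receptor gene, and *Pax2* (347 against 5.74 CPM), a transcription factor of the optic stalk and of ON astrocytes. Cluster 7 (25 nuclei) was led by the neuronal adhesion gene *Cntnap2* (3061 against 16.2 CPM) and also by the synaptic vesicle gene *Syt1* (1778 against 22.3 CPM). Cluster 8 (21 nuclei) was led by *Lhfpl3* (5062 against 95.4 CPM) and the tenascin-R gene *Tnr* (3338 against 65.1 CPM), genes of oligodendrocyte precursor cells (OPCs). Cluster 9 (14 nuclei) was led by *Inpp5d* (795 against 20.2 CPM) and *Arhgap15* (1039 against 36.8 CPM), detected in 71.4% and 85.7% of its nuclei. The macrophage receptor gene *Mrc1* was at 454 against 7.36 CPM there but was detected in only 28.6%. Cluster 10 (11 nuclei) was led by the mural cell gene *Rgs5* (1459 against 2.75 CPM) and the endothelial gene *Vwf* (1653 against 15.6 CPM). Cluster 11 (9 nuclei from 4 libraries) was led by *Sfta3-ps* (3404 against 8.09 CPM) and held 5500 CPM of *Slit2*, an axon guidance gene. *Slit2* was at 1423 CPM in *Adamtsl3*-positive and 60.6 CPM in *Ranbp3l*-positive fibroblasts. The highest Scrublet scores of each library, in a number fixed in advance (0.8% per 1000 nuclei), were marked as doublets. They made up 2.95% to 5.62% of all nuclei by library. Among the clusters they were 12.0% of cluster 7, 9.52% of cluster 8, 7.14% of cluster 9 and 9.09% of cluster 10. Clusters 2, 4 and 6 had 1.79%, 3.03% and 3.33%, and clusters 1, 3, 5 and 11 had 0%. Clusters 7 to 10 held only 11 to 25 nuclei each, so few nuclei set their shares.

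**Figure D2:**
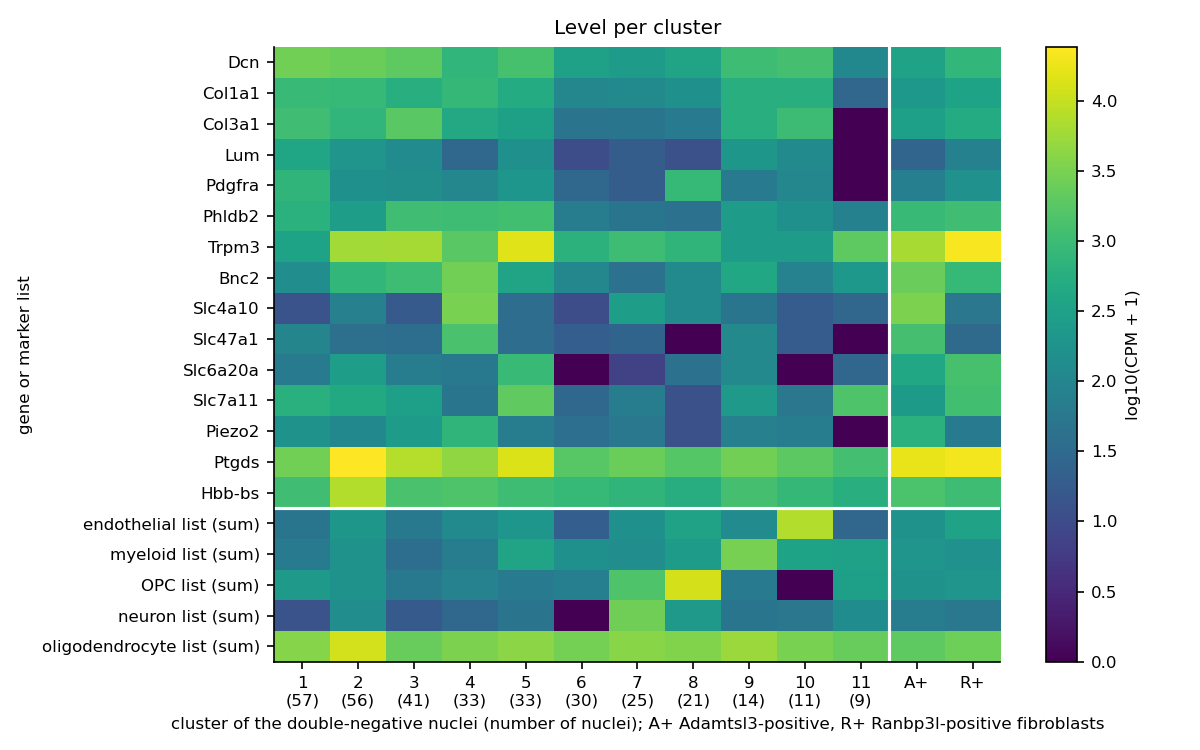
Colour gives log10(CPM + 1) of each gene, or of the summed genes of a marker list, in the 11 clusters of double-negative nuclei (number of nuclei in brackets) and in the pooled *Adamtsl3*-positive (A+) and *Ranbp3l*-positive (R+) fibroblasts. *Slc4a10* is high in cluster 4 (3132 CPM) as in the *Adamtsl3*-positive fibroblasts (3281 CPM), and the neuron and OPC lists are high in clusters 7 and 8.

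The double-negative nuclei were next set against the other fibroblasts of the same library, with counts summed per library and the library as a block. The members were chosen by counts of the same nuclei, so genes that accompany *Adamtsl3* or *Ranbp3l* had to be lower. *Ranbp3l* also counted among the fibroblast genes of the selection. Double-negative nuclei had to reach the limit with the other genes, which can raise genes that accompany those. The adjusted p-values (edgeR quasi-likelihood test, Benjamini-Hochberg) of this comparison relate the size of a difference to the spread over libraries and are not independent evidence. Of 9388 genes tested, 897 (9.55%) were higher and 607 (6.47%) lower in the double-negative nuclei, where called means that the adjusted p was under 0.05 and the log2 difference beyond 0.5. Of the calls, 59.6% were higher, against 71.9% by DESeq2 and 45.1% without a filter on low counts. Because 85 nuclei went against the label, the comparison was repeated after narrowing both groups to nuclei with at least 2 of *Dcn*, *Col1a1* and *Col1a2* and fewer than 4 UMIs of each of the endothelial, myeloid, OPC, neuron and astrocyte lists. This kept 181 double-negative nuclei in all, and 7 libraries had the 10 nuclei needed for a sum (replicate 10 had 7 and was left out). It called 143 (3.57%) of 4007 genes higher and 131 (3.27%) lower. Of these 274 calls, 221 were also called in the same direction without the narrowing, while 708 of the 1504 calls among all nuclei were tested after it and the same 221 were called. The narrowing also changed the comparison group, in which *Adamtsl3* was at 764 ± 172 CPM before it and at 281 ± 83.1 CPM after it, while *Ranbp3l* was at 1809 ± 220 and 1956 ± 237 CPM. Genes that differ between the *Adamtsl3*-positive and *Ranbp3l*-positive fibroblasts were thus compared with another mix of them. The astrocyte list holds *Slc4a4* and *Gjb6*, which are also in the solute carrier and dural fibroblast lists used below. Before the narrowing, 86.7% of *Adamtsl3*-positive fibroblasts had 2 or more UMIs of the astrocyte list. The share was 57.3% in *Ranbp3l*-positive fibroblasts and 56.7% in double-negative nuclei. The narrowing was chosen after seeing the clusters.

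Genes of neurons and OPCs were among those with the largest differences. *Lrrtm4*, a synaptic adhesion gene, ranged from 185 to 1140 CPM by library with a median of 476, against 8.25 to 85.5 CPM with a median of 31.1 in the other fibroblasts. The ranges did not overlap, and the log2 difference was 4.10 ± 0.34 (SE, adjusted p = 1.3e-08, edgeR). *Grm5*, a glutamate receptor gene, was at 363 ± 382 against 13.0 ± 6.13 CPM (SD, n = 8), and *Sgcz*, a sarcoglycan gene, at 451 ± 332 against 19.3 ± 21.7 CPM. Of the UMIs of these 3 genes in the double-negative nuclei, 99.7%, 98.2% and 96.5% lay in clusters 7 and 8, which held 22.1% of all their UMIs. In the narrowed nuclei *Lrrtm4* was listed at 0 in the double-negative sums and *Grm5* was at 6.60 against 6.42 CPM. *Gria1*, another glutamate receptor gene, was at 442 ± 196 against 46.6 ± 20.6 CPM, with 47.0% of its UMIs in cluster 6 and 33.9% in cluster 7.

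Genes of other cell types were also higher, where 9.55% of all genes tested were higher and 6.47% lower. All 7 genes of the OL list were tested and 7 were higher, with *Mbp*, a myelin protein gene, at 648 ± 281 against 356 ± 88.3 CPM. The summed OL list was at 2073 to 6244 CPM in the double-negative nuclei and at 1737 to 2993 CPM in the other fibroblasts, and *Mbp* was also called higher in the narrowed nuclei (log2 difference 0.64 ± 0.19, adjusted p = 0.045, edgeR). The OPC list had 4 of 5 genes higher and a summed level of 516 to 3086 against 75.0 to 274 CPM, which was at most 211 against 115 CPM after the narrowing. The narrowing removed nuclei by the UMIs of this same list, so that fall was set by the filter and is no check of it. The neuron list had 2 of 2 tested genes higher (87.0 to 1171 against 33.0 to 106 CPM). The endothelial list had 3 of 4 and the myeloid list 3 of 5 tested genes higher. *Gfap*, an astrocyte filament gene, was higher (390 ± 74.5 against 175 ± 45.5 CPM) while *Gjb6* was lower. The mural list had 1 higher and 1 lower of 3, the Schwann cell list 1 higher of 2, and the T cell list 1 lower of 1, with *Cd3e* at 0 in the double-negative nuclei. The pituitary list had 0 called of 1, and no gene of the melanocyte, skeletal muscle and adipocyte lists passed the filter on low counts. The part of these transcripts in the differences below was not tested beyond the narrowing.

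Among the 10 fibroblast markers outside the selection, 4 were higher, 2 lower and 4 not called (9.55% higher and 6.47% lower over all genes). *Col6a3*, a type VI collagen gene, was higher in 8 of 8 libraries, at 111 ± 45.6 against 46.3 ± 9.12 CPM. Its log2 difference was 1.25 ± 0.18 (adjusted p = 2.5e-05), and 1.66 ± 0.23 in the narrowed nuclei (adjusted p = 3.9e-05, both edgeR). *Col3a1* ranged from 448 to 993 CPM (median 579) against 297 to 540 CPM (median 442), with a log2 difference of 0.62 ± 0.13, also 0.62 after the narrowing. *Lum* was at 123 ± 61.3 against 61.2 ± 12.1 CPM and *Pdgfra* at 245 ± 184 against 128 ± 22.1 CPM. These 4 genes were called higher in both comparisons. Both kept the selection on fibroblast genes, which include *Ranbp3l* itself. Double-negative nuclei thus had to reach the limit without it, whereas *Ranbp3l*-positive fibroblasts counted it. This can raise genes that accompany *Dcn*, *Col1a1* and *Col1a2* in the double-negative nuclei. The calls are thus not independent of the selection or of each other. The narrowing selected on *Dcn*, *Col1a1* and *Col1a2* again, so it is no second check of these calls. *Pdgfra* is also an OPC gene, and 27.3% of its UMIs lay in cluster 8, against 42.3% in cluster 1. *Phldb2*, a microtubule-anchoring protein gene, was lower in 8 of 8 libraries (493 ± 168 against 1057 ± 120 CPM). *Slc7a11*, a cystine transporter gene, was at 405 ± 186 against 742 ± 182 CPM. Neither was called after the narrowing (log2 differences of -0.42 and -0.59). Against *Adamtsl3*-positive fibroblasts alone *Slc7a11* was called higher (log2 difference 0.95, adjusted p = 0.044, edgeR). *Col5a2*, *Fbn1*, *Pdgfrb* and *Lama2* had log2 differences between -0.45 and 0.22 and were not called.

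**Figure D3:**
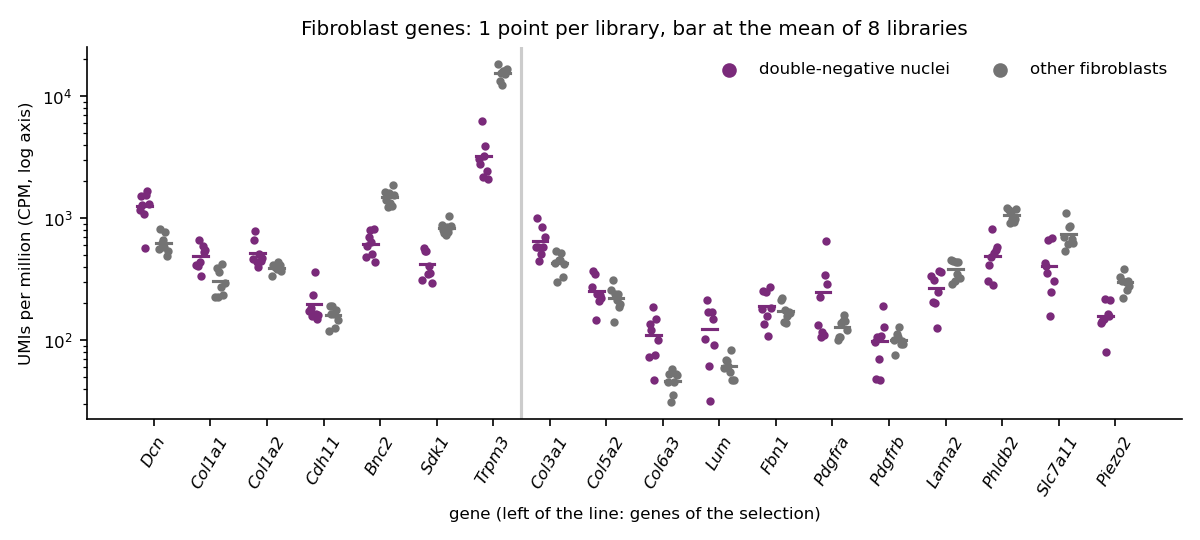
CPM (log axis) of genes of the selection (left of the line) and of fibroblast markers and *Piezo2* outside it, in double-negative nuclei and other fibroblasts, with 1 point per library and a bar at the mean of 8 libraries. *Trpm3*, *Phldb2* and *Piezo2* do not overlap between the groups, whereas *Dcn*, *Col3a1* and *Lum* are higher on average with overlapping ranges.

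More collagen genes were called higher than lower, as held for all genes tested (9.55% higher and 6.47% lower, 3.57% and 3.27% after the narrowing). The selection can itself raise genes that accompany *Dcn*, *Col1a1* and *Col1a2*, so these counts are a description. Of 19 tested genes for fibrillar collagens and their processing, 5 were higher and 1 was lower, with a median log2 difference of 0.21 (0.01 over all genes tested). After the narrowing 1 of 9 (*Col3a1*) was higher and 0 lower. *Col11a1* was at 76.7 ± 37.8 against 22.8 ± 3.69 CPM, with 58.0% of its UMIs in clusters 6 to 11 and 27.3% in cluster 9. Of 19 other collagen genes, 8 were higher and 3 lower, with a median of 0.60. The higher ones included *Col4a1* (174 ± 43.4 against 89.0 ± 18.2 CPM) and *Col4a6* (101 to 444 against 95.2 to 159 CPM), which encode chains of basement membrane collagen. In the narrowed nuclei 7 of 13 other collagens were higher and 0 lower, with a median of 0.82. *Col25a1* was lower among all nuclei (154 ± 137 against 516 ± 156 CPM) but not after the narrowing (218 ± 270 against 147 ± 33.7 CPM). It was at 1141 CPM in *Adamtsl3*-positive and 115 CPM in *Ranbp3l*-positive fibroblasts, and the larger shift was in the comparison group, whose *Adamtsl3* level also fell. Of 43 matrix glycoprotein and proteoglycan genes, 13 were higher and 7 lower, and after the narrowing 8 and 3 of 32. *Ogn* (osteoglycin, 114 ± 38.5 against 301 ± 40.6 CPM), *Smoc1* (82.2 ± 46.2 against 281 ± 41.1 CPM) and *Fbln1* (fibulin, 117 ± 30.7 against 249 ± 22.6 CPM) were lower in 8 of 8 libraries and were also called lower after the narrowing.

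Among all nuclei, the genes called in the adventitial list were higher, and those called in the arachnoid lists were lower. The shares over all genes were 9.55% higher and 6.47% lower, and 3.57% and 3.27% after the narrowing. The adventitial and universal list had 4 of 12 tested genes higher and 0 lower (median log2 difference 0.45), among them *Pi16* at 161 ± 81.1 against 64.2 ± 22.2 CPM and *Cd34* at 33.7 ± 17.8 against 16.8 ± 6.67 CPM. Of the *Cd34* UMIs, 26.2% lay in cluster 10, and *Ly6a*, also among the 4, was at 791 CPM in cluster 10 against 11.0 CPM in the other double-negative nuclei. After the narrowing 3 of 8 genes were higher (*Pi16*, *Pdgfra* and *Gsn*) and 0 lower. The log2 difference of *Pi16* was then 1.09 ± 0.21 (adjusted p = 0.0013, edgeR). The arachnoid list had 0 of 12 higher and 8 lower (median -0.84), and the arachnoid barrier list 0 of 11 higher and 7 lower (median -0.89). After the narrowing the arachnoid list had 0 higher and 4 lower of 12 (median -0.51), and the arachnoid barrier list 1 higher (*Cldn11*, a tight junction gene) and 3 lower of 9 (median -0.12). These 3 (*Slc22a8*, *Slc22a6* and *Slc47a1*), and *Slc13a3* and *Slc6a13* of the 4, are also counted among the lower solute carriers below. *Aldh1a2*, another of the 4, is also in the retinoic acid list. The counts of these lists are thus not separate results. *Ptgds* ranged from 5033 to 7931 CPM (median 5833) against 13970 to 24161 CPM (median 18296), without overlap, and its log2 difference was -1.57 ± 0.12 (adjusted p = 4.1e-09, edgeR), or -0.63 ± 0.10 after the narrowing. *Aldh1a2*, which makes retinoic acid, was at 231 ± 93.7 against 390 ± 37.6 CPM. Against *Adamtsl3*-positive fibroblasts alone it was called higher (log2 difference 0.79, adjusted p = 0.00074, edgeR), so its direction depended on the fibroblasts compared. In another setting, nuclei with 2 or more UMIs over the endothelial, mural, myeloid, T cell, OPC, neuron and Schwann cell lists were removed. The OL and astrocyte lists were not used for this, and 5 libraries were left. There *Ptgds*, *Aldh1a2* and *Ogn* had log2 differences of 0.14, 0.21 and 0.34 and were not called. The dural list had 1 higher and 8 lower of 12 (*Ccn3*, a matricellular protein gene, at 59.6 ± 32.8 against 254 ± 72.0 CPM), but 2 higher and 0 lower of 8 after the narrowing. Against *Ranbp3l*-positive fibroblasts alone the log2 difference of *Ccn3* was 0.79 and was not called (adjusted p = 0.078, edgeR). The pial and perivascular list had 4 higher and 4 lower of 12, with *Lama1* at 245 ± 101 against 118 ± 37.5 CPM and *Abca8a*, a lipid transporter gene, at 77.4 ± 67.2 against 13.6 ± 5.44 CPM, and 1 higher and 0 lower of 7 after the narrowing. The perineurial and endoneurial list had 6 higher and 1 lower of 14, and 0 of 3 called after the narrowing.

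The transporter genes of meningeal fibroblasts were mostly lower, where 6.47% of all genes tested were lower, and 3.27% after the narrowing. Of 30 solute carrier genes tested, 21 were lower and 1 was higher, with a median log2 difference of -1.40, and after the narrowing 12 of 22 were lower and 0 higher, with a median of -0.95. *Slc6a20a* (chromosome 9, 123463835 to 123508170, minus strand) ranged from 46.4 to 258 CPM with a median of 113 in the double-negative nuclei, and from 571 to 1240 CPM with a median of 872 in the other fibroblasts. Each library was lower and the ranges did not overlap, with a log2 difference of -2.87 ± 0.19 (adjusted p = 1.2e-09), or -2.24 ± 0.20 after the narrowing (adjusted p = 3.8e-08, both edgeR). The organic anion transporter genes *Slc22a8* (79.5 ± 36.7 against 359 ± 56.1 CPM) and *Slc22a6* (31.1 ± 17.4 against 114 ± 36.7 CPM), the dicarboxylate transporter gene *Slc13a3* (60.2 ± 26.0 against 240 ± 49.5 CPM) and the GABA transporter gene *Slc6a13* (113 ± 46.0 against 321 ± 76.7 CPM) were lower in both comparisons. *Slc26a7*, an anion exchanger gene, had 59.2 ± 22.7 against 271 ± 73.6 CPM and was not called after the narrowing. It was at 664 CPM in *Adamtsl3*-positive and 15.7 CPM in *Ranbp3l*-positive fibroblasts, so the direction depended on which of them was compared. The same held for *Slc47a1*, which was called lower in both comparisons. Against *Ranbp3l*-positive fibroblasts alone it was called higher (log2 difference 2.25, adjusted p = 1.7e-06, edgeR). *Slc4a10*, also called lower in both, was at 347 CPM in the pooled double-negative nuclei. It was at 3281 CPM in *Adamtsl3*-positive and 53.5 CPM in *Ranbp3l*-positive fibroblasts. *Atp13a5*, an ion pump gene, was at 20.9 ± 41.5 against 184 ± 33.8 CPM. Control replicate 3 had 121 CPM in its double-negative nuclei, against 0 to 7.73 CPM in the other controls. *Nadk2*, a mitochondrial NAD kinase gene, was at 33.3 ± 14.0 against 224 ± 36.2 CPM. It starts at 9071264 on chromosome 15, just past the end of *Ranbp3l* at 9068799 on the same strand, so its level cannot be told apart from the selection on *Ranbp3l* and is a description only.

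**Figure D4:**
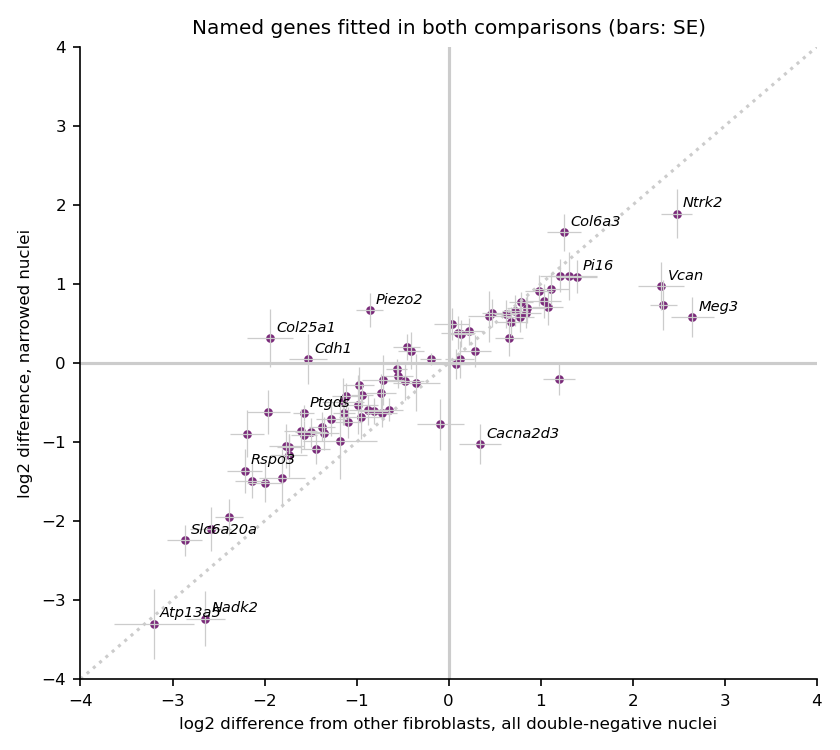
Log2 difference of double-negative nuclei from other fibroblasts for named genes fitted in both comparisons, with all nuclei on the horizontal axis and the narrowed nuclei on the vertical axis (bars give the SE, the dotted line equality). *Slc6a20a* is low on both axes (-2.87 and -2.24), whereas *Piezo2* changes sign (-0.86 and 0.67).

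Among all nuclei, signalling genes were called in both directions, with fewer calls after the narrowing. Calls over all genes fell as well, from 9.55% to 3.57% higher and from 6.47% to 3.27% lower. The retinoic acid list had 0 of 14 higher and 5 lower, and 0 and 1 of 9 after the narrowing (*Aldh1a2*, also in the arachnoid list). The TGF-beta and BMP list had 5 higher and 9 lower of 30, with the co-receptor gene *Tgfbr3* at 190 to 349 against 520 to 615 CPM and *Bmp6* at 367 ± 196 against 853 ± 149 CPM. After the narrowing this list had 0 higher and 2 lower of 22. The WNT list had 4 higher and 8 lower of 28 (1 and 2 of 15 after the narrowing), and *Rspo3*, a WNT agonist gene, was at 55.9 ± 20.6 against 272 ± 52.6 CPM (637 CPM in *Adamtsl3*-positive and 39.9 CPM in *Ranbp3l*-positive fibroblasts). The growth factor list had 8 higher and 8 lower of 36, and 4 and 0 of 20 after the narrowing; *Ntrk2*, a neurotrophin receptor gene, was at 339 ± 104 against 61.1 ± 10.1 CPM and remained called after the narrowing (log2 difference 1.89 ± 0.31). Of its UMIs in all double-negative nuclei, 85.8% lay in clusters 6 to 11, which held 44.6% of all UMIs. Of 40 transcription factor genes, 8 were higher and 13 lower, and after the narrowing 1 and 3 of 27. *Eya2* (196 ± 68.0 against 595 ± 100 CPM), *Eya1* (170 ± 53.5 against 481 ± 61.2 CPM) and *Foxp2* (483 ± 141 against 1255 ± 124 CPM) were lower without overlap, and these 3 were called lower after the narrowing as well.

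Adhesion and channel genes were called in both directions. Of 50 adhesion genes, 27 were higher and 9 lower, and of 33 ion channel genes 23 were higher and 3 lower. After the narrowing these counts were 6 and 3 of 27, and 1 and 2 of 10. The share of higher calls over all genes fell from 9.55% to 3.57%, and that of lower calls from 6.47% to 3.27%. The cadherin gene *Fat3* was at 72.0 to 391 against 9.13 to 39.6 CPM, with 57.5% of its UMIs in clusters 7 and 8. The cytokine and complement list had 5 higher and 2 lower of 19, the contractile list 3 higher and 1 lower of 22 (*Postn*, the periostin gene, at 55.0 ± 21.9 against 23.8 ± 11.4 CPM), and the list of nuclear and stress genes 1 higher and 1 lower of 9. After the narrowing these lists had 0 called of 9, 1 higher (*Postn*) and 1 lower of 12, and 0 called of 5. The shares of these short lists were not tested against those over all genes. The summed level of the nuclear and stress genes was lower in the double-negative nuclei in 8 of 8 libraries, at 58992 to 74666 against 65616 to 89853 CPM, and overlapped after the narrowing (55801 to 74154 against 55414 to 72156 CPM). The median mitochondrial share was higher in 6 of 8 libraries, at 0.476% to 1.02% against 0.431% to 0.722%. The part of these signs of RNA quality in the differences was not tested.

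Of 17 genes for mechanosensitive channels and the YAP and TEAD factors, 0 were higher and 2 lower, and after the narrowing 0 and 1 (*Kcnk2*) of 13. Of all genes tested, 9.55% were higher and 6.47% lower, and 3.57% and 3.27% after the narrowing. *Piezo2*, which encodes a rapidly adapting mechanosensitive channel, had 138, 143, 149 and 216 CPM in the double-negative nuclei of the 4 controls, by replicate number. The 4 libraries labelled cKO had 79.1, 164, 157 and 214 CPM. The other fibroblasts were at 223 to 380 CPM, above every double-negative value (log2 difference -0.86 ± 0.15, adjusted p = 0.00016, edgeR). The level followed the type of fibroblast, with 669 ± 150 CPM in *Adamtsl3*-positive and 66.9 ± 22.2 CPM in *Ranbp3l*-positive fibroblasts (SD, n = 8). Within the double-negative nuclei, cluster 4 had 734 CPM and held 39.3% of the *Piezo2* UMIs, cluster 3 had 253 CPM and cluster 1 had 176 CPM. After the narrowing the sign turned, with 230 ± 109 against 147 ± 23.0 CPM (log2 difference 0.67 ± 0.22, adjusted p = 0.060, edgeR). The comparison group then held a lower *Adamtsl3* level, as given above, and the part of this in the turned sign was not tested. *Kcnk2*, a mechanosensitive potassium channel gene, was lower (284 ± 80.1 against 442 ± 79.8 CPM), with 94.4 CPM in *Adamtsl3*-positive and 663 CPM in *Ranbp3l*-positive fibroblasts. *Piezo1* was low throughout, at 26.2 ± 11.9 against 22.9 ± 5.70 CPM.

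Between genotypes, 0 of 3561 genes (0%) were called within the double-negative nuclei by edgeR, with 207 genes at an unadjusted p under 0.05 and 1 gene (*Opcml*) called by DESeq2. With no true difference, about a 0.05 share of the genes tested would reach that unadjusted p. In simulated counts, 81.6% of genes changed 4-fold but only 15.2% of those changed 2-fold were recovered in this comparison. Most 2-fold differences were thus missed in the simulation, and such differences may go undetected here. The simulation gave every gene the same dispersion and no library effect, so recovery for genes with a larger spread was not measured. *Piezo2* did not differ beyond the spread over libraries (means of 162 ± 36.8 CPM for controls and 153 ± 55.8 CPM for libraries labelled cKO, log2 difference 0.03 ± 0.28). *Olig2*, the locus that carries the cre, was at 22.9 ± 8.56 and 30.5 ± 9.05 CPM, with 31 UMIs in all and an exact permutation p of 0.229; it did not pass the filter on low counts.

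The genes with the smallest p-values between genotypes failed the correction in the main edgeR fit. They were chosen by these p-values, so a lack of overlap between the groups follows in large part from the choice. How many of all genes tested lacked overlap was not counted. In a fit of double-negative nuclei and other fibroblasts together, *Opcml* and *Runx2* were called. *Opcml*, a cell adhesion gene, had 336, 252, 306 and 147 CPM in the 4 control libraries, by replicate number. In the 4 labelled cKO it had 1060, 749, 522 and 1089 CPM. The groups did not overlap, with a log2 difference of 1.73 ± 0.33 (adjusted p = 0.22, edgeR). Clusters 7 and 8 held 91.8% of its UMIs. Cluster 7 made up 2.63% to 10.0% of the double-negative nuclei in the controls and 2.94% to 14.0% in the libraries labelled cKO. For cluster 8 the shares were 0% to 7.89% and 8.33% to 13.3%, from only 6 and 15 nuclei in all. Shares of the 11 clusters were not tested between genotypes, nor was the part of either cluster in the *Opcml* values. *Runx2*, a transcription factor of bone and mesenchyme, had 150, 245, 221 and 131 CPM in the controls, above the 15.8, 50.4, 87.0 and 39.4 CPM of the other group (log2 difference -1.88 ± 0.36, adjusted p = 0.22). Cluster 4 held 40.1% of its UMIs and made up 10.0% to 13.2% of the double-negative nuclei in controls and 5.88% to 13.3% in the other group. *Lbp*, the gene of a lipopolysaccharide-binding protein, was at 93.5 ± 11.2 and 233 ± 51.9 CPM (log2 difference 1.31 ± 0.26, adjusted p = 0.23), and 89.1% of its UMIs lay in clusters 1 to 5. The next genes by p were *Lims2*, *Cdh20*, *Adgrv1*, *Olig1*, *Selenow*, *Slit2* and *Gm33934*, with adjusted p-values of 0.56 to 0.61 (edgeR). The test of whether the difference from the other fibroblasts varied with genotype called 0 of 10916 genes (0%), with 432 at an unadjusted p under 0.05 and 2 genes called by DESeq2.

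**Figure D5:**
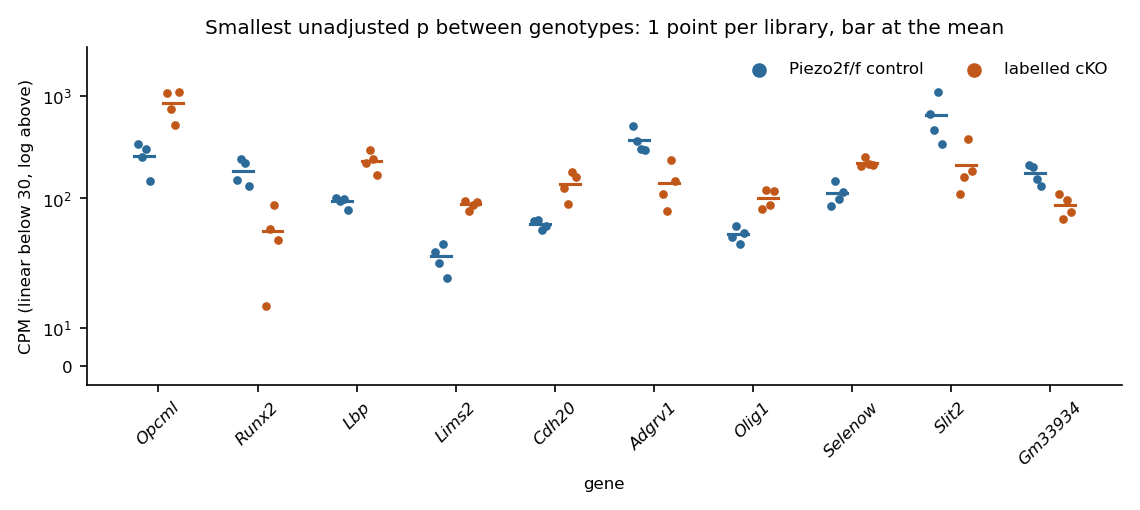
CPM in the double-negative nuclei of each library (linear below 30, log above) for the 10 genes with the smallest p between genotypes, with 1 point per library and a bar at the mean of 4 libraries. *Opcml*, *Runx2* and *Lbp* do not overlap between the groups, which follows in large part from the choice by p. None of the 10 passes the adjusted threshold in the main edgeR fit.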

How the data were processed

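Nuclei of 8 ON libraries, each from 6 pooled nerves, were sequenced by the authors and counted with Cell Ranger 7.0.0 on GRCm39, per the labels and the study's methods. The deposited values are raw UMI counts of 33696 genes for every barcode, without removal of free RNA, nuclei or doublets. Members and gene lists were chosen with earlier results of these data known. Counts of the double-negative nuclei and of the other fibroblasts were summed per library, which is the replicate, where at least 10 nuclei and 1000 UMIs were present. The 12 genes of the selection stayed in the library sizes and were not tested. Sums were fitted with edgeR 4.0.16 (R 4.3.3; TMM, filterByExpr, quasi-likelihood test, Benjamini-Hochberg) with the library as a block, which pairs both sums of the same pooled nerves; genotypes were compared without a block. DESeq2 1.42.0 was an alternative. Calls needed both an adjusted p under 0.05 and a log2 difference beyond 0.5 in size. The SE is the log2 difference divided by the root of the F statistic. Levels are CPM of a sum, and library sums held 63184 to 228625 UMIs in double-negative nuclei and 936752 to 2350004 UMIs in the other fibroblasts. The members were clustered with scanpy 1.11.5 (2000 variable genes, 20 principal components, 10 neighbours, Leiden resolution 1.0). Nuclei marked by their Scrublet score, a fixed number per library, were kept in the data and removed in an alternative. Genes were named by a fixed rule: genes of the selection, independent fibroblast markers, *Piezo1*, *Piezo2* and *Olig2*, the 12 largest called differences each way that had 1 direction in every library and at least 50 CPM, up to 4 genes of each list by adjusted p, the 10 smallest adjusted p-values between genotypes, and leading genes of clusters. Of these, the values of a part are printed. *Prl* and *Cd3e* were named after their values were seen. The fits were tested on data simulated with the same dispersion for every gene and no library effect. There 93.1% of genes changed 4-fold, and 29.8% of those changed 2-fold, were recovered between double-negative nuclei and other fibroblasts. Results for some genes are not reported here. P-values of the unblocked genotype tests measure the spread between pools of nerves. In fits with the library as a block they measure the spread, over libraries, of the differences within a library. Gene positions are from GENCODE annotation of GRCm39.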

Additional observations from a re-analysis of the deposited data

Results flagged for a closer look

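In 7 of the 126 groups of 4 libraries that were examined, 1 library lay far from the other 3 by Dixon's criterion, which flags about 1 in 20 groups by chance. In the controls, replicate 3 had 121 CPM of *Atp13a5* in its double-negative nuclei, against 0 to 7.73 CPM in the other 3. Control replicate 4 had 549 CPM of *Syt1*, against 96.0 to 156 CPM. Control replicate 4 had 216 CPM of *Piezo2*, against 138 to 149 CPM. Among the libraries labelled cKO, replicate 13 had a median of 1514.5 genes per double-negative nucleus, against 1877 to 1929. *Col4a1* was at 254 CPM in replicate 13, against 174 to 183 CPM in the others, and *Col4a6* at 444 CPM in replicate 12, against 101 to 149 CPM. *Slc13a3* was at 78.3 CPM in replicate 12, against 44.1 to 48.1 CPM.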

How the results depend on the processing

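Limits included the depth of a nucleus, the 10 nuclei a sum needed and the nuclei of other types among the 330. Fits that lost libraries used 5 (nuclei with 2 or more UMIs of the lists of other types, without OLs and astrocytes, removed) and 3 (at least 5 fibroblast genes). Those with at least 2 of *Dcn*, *Col1a1* and *Col1a2* and with the narrowed nuclei used 7. Against 1504 genes called between double-negative nuclei and other fibroblasts, 1565 were called with no replicate block. With at least 2 of *Dcn*, *Col1a1* and *Col1a2* the counts were 979 with the block and 1023 without it, and the other settings of this comparison were fitted only with the block. The genotypes shared no replicate numbers, so they could not be paired. The count was 2951 without a filter on low counts and 533 after thinning to 1000 UMIs. It was 108 with nuclei removed that had 2 or more UMIs of those lists, and 111 with at least 5 fibroblast genes. In the libraries labelled cKO alone it was 892, and it was 1265 to 1491 when each library was left out. Settings chosen after seeing the data gave these 979 and 274 (the narrowed nuclei). The cause of these shifts was not tested. The difference in genes per nucleus was -199.6 among nuclei with at least 2000 UMIs, a description, since the selection itself favours shallow nuclei.

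Signs turned for some genes, and edgeR called only some of the turned values. The signs were followed over the settings only for part of the genes, so this list is not complete. Against *Adamtsl3*-positive fibroblasts alone the log2 differences were 0.79 (*Aldh1a2*), 1.64 (*Kcnk2*) and 0.95 (*Slc7a11*), all called (adjusted p of 0.00074, 1.3e-05 and 0.044). Against *Ranbp3l*-positive fibroblasts alone they were 0.79 (*Ccn3*), 0.29 (*Col25a1*), 1.36 (*Piezo2*), 0.58 (*Rspo3*), 1.92 (*Slc26a7*) and 2.25 (*Slc47a1*). Of these, *Piezo2*, *Slc26a7* and *Slc47a1* were called (adjusted p of 1.4e-05, 6.7e-06 and 1.7e-06) and *Ccn3*, *Col25a1* and *Rspo3* were not (0.078, 0.60 and 0.15). In the narrowed nuclei they were 0.32 (*Col25a1*) and 0.67 (*Piezo2*), neither called (adjusted p of 0.70 and 0.060). With nuclei removed that had 2 or more UMIs of the lists of other types, they were 0.21 (*Aldh1a2*), 0.35 (*Kcnk2*), 0.34 (*Ogn*) and 0.14 (*Ptgds*). None of these was called (adjusted p of 0.66 to 0.87, edgeR). With at least 5 fibroblast genes they were -0.77 (*Fat3*), -7.12 (*Grm5*), -0.43 (*Lhfpl3*), -2.12 (*Lrrtm4*), -0.89 (*Syt1*) and 0.41 (*Piezo2*), none called (adjusted p of 0.45 to 0.95).

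Between genotypes DESeq2 called 1 gene, the fit without a filter 56, the fit with at least 5 fibroblast genes 1 (*Prl*, a pituitary gene that stood apart in control replicate 3) and the fit of members and other fibroblasts together 2 (*Opcml* and *Runx2*). The fit with at least 5 fibroblast genes had 1 control library (replicate 3) and 2 labelled cKO, with the lone control assumed to vary like the others, so its values are no check of the genotype comparison. The log2 difference of *Piezo2*, 0.03, was -0.026 at 2000 UMIs or more, -0.59 with at least 5 fibroblast genes and -0.18 to 0.20 when each library was left out. For the dependence of the difference from other fibroblasts on genotype, DESeq2 called 2 genes, and leaving out each library gave 0 to 2, with -0.10 to 0.30 for *Piezo2*. Without replicate 2 of the controls 1 gene was called, and without control replicate 3 or replicate 12 there were 2. The genotype difference in the share of double-negative nuclei ranged from -5.40 to -2.67 percentage points when each library was left out.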
